A study of Mus musculus with 12 samples.

Results

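The transcripts of 10 genes of the granulocyte lineage were followed through 4 dendritic cell populations of mouse bone marrow. They fall into 5 genes grouped here as primary granule genes, *Mpo*, *Elane*, *Prtn3*, *Ctsg* and *Ms4a3*, and 5 genes of the late neutrophil, *S100a8*, *S100a9*, *Ngp*, *Camp* and *Ltf*. *Ms4a3* encodes a membrane protein and is in the first group by its stage only. The genes were chosen by name, for the stage of granulocyte development at which they are known to be used. No threshold on their values was used, but earlier results of these data were known. Counts of members set beside shares of all genes are thus descriptions. The members are 10 of the 21754 genes in the count table, and all 10 were among the 15293 genes tested, which had 1 count or more per library on average. All 10 were counted in each of the 12 libraries, with 21 to 40819 counts per gene and library.

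RNA was sequenced from bone marrow of healthy wild type C57BL/6 mice, an inbred laboratory strain, after magnetic depletion of cells carrying any of several lineage antigens, among them CD3, Ly6G, NK1.1 and Ter119. The 4 populations were sorted from 3 individual mice, which gave 12 libraries, 3 per population. Pre-cDCs lack Siglec-H and are precursors of conventional dendritic cells. The others carry Siglec-H, namely precursors low for CCR9 and B220 (lo-lo), precursors low for CCR9 and high for B220 (lo-hi), and plasmacytoid dendritic cells high for both (pDC). No group carried a transgene, a deletion or a treatment, and the mice of the study were adults of both sexes. The depletion removes Ly6G+ cells, among them the mature neutrophils, in which the late genes are known to be abundant. A bulk library cannot tell a few cells with much of a transcript from many cells with little, nor fewer cells of a type from less RNA per cell.

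Neutrophil granules are filled in the order in which their proteins are made. Primary, or azurophil, granules are loaded in promyelocytes with myeloperoxidase and serine proteases, whereas proteins of the secondary granules, such as lactoferrin and cathelicidin, are made later, by myelocytes and metamyelocytes. The calprotectin subunits S100a8 and S100a9 are cytosolic and very abundant in the mature cell. PU.1, a factor that binds purine-rich DNA, and the C/EBP factors are known regulators in the granulocyte lineage, and PU.1 is also used by dendritic cells.

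Upstream DNA is shown for 3 members as a description. The 10 genes lie on 6 chromosomes and varied together across the libraries, and whether upstream sequence bears on this was not tested. The 3 are those whose window of 250 bases before the start overlaps no annotated exon. The sequences are those of RefSeq on GRCm38.p6, written 5′ to 3′ in the direction of the gene. Capitals mark matches of 2 motifs searched on both strands, GAGGAA, a purine-rich core of the PU.1 type, and TTNCNNAA, a loose form of the C/EBP site. The windows are chr14:56102575-56102824 for *Ctsg*, chr19:11640852-11641101 for *Ms4a3* and chr3:90695722-90695971 for *S100a9*, all on the minus strand.
Ctsg: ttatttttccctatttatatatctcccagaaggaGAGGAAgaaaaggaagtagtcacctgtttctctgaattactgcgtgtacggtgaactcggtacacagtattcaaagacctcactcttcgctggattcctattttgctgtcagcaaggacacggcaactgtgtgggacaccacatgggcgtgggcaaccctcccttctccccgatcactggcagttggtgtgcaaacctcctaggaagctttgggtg
Ms4a3: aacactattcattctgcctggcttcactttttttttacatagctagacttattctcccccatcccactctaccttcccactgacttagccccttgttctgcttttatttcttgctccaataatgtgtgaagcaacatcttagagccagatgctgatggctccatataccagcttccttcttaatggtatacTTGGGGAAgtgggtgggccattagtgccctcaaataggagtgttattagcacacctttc
S100a9: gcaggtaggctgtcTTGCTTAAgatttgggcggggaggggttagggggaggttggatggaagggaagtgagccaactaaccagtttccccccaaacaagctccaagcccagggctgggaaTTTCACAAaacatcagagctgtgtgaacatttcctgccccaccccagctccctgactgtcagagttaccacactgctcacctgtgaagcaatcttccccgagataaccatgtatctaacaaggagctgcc
*Ctsg* had 1 match of GAGGAA, *Ms4a3* 1 match of TTNCNNAA and *S100a9* 2 matches of TTNCNNAA. Over all 10 members, 6 windows held GAGGAA, against 23.3% of the 32851 windows in the reference, and 5 held TTNCNNAA, against 36.8%. The 2 motifs can overlap on opposite strands. A match of so few letters is a description and not a binding site.

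The populations used here do not follow the deposited labels. They follow a match of each well to the named samples of the published heatmap of transcription factors, made on the rank order of 28 transcription factors within each library. For each of the 12 named samples, exactly 1 well had all 378 gene pairs in the sample's order, and the next best well had 8 or more pairs turned. The match makes wells A1, A5 and A9 pre-cDCs, A2, A6 and A10 lo-lo precursors, A3, A7 and A11 lo-hi precursors, and A4, A8 and A12 pDCs. Replicates 1, 2 and 3 are wells A1 to A4, A5 to A8 and A9 to A12. The deposited label names another population in 8 of the 12 wells. The grouping thus rests on values of 28 other genes in the same libraries, none of them a member here. Results are therefore also given by the labels and in the 4 wells (A1, A6, A7 and A12) on which label and match name the same population.

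The libraries held 1801463 to 5995971 counts (median 3087455). Levels are CPM, counts per 1000000 of a library size scaled by the TMM method. A floor of 3 counts is worth 0.5 to 1.67 CPM before that scaling and covers counting error only. SCRB-seq reads mostly the 3′ ends of transcripts, so CPM were not divided by gene length. The matched groups differed in the markers of their gates. *Siglech*, the sorted lectin, had means of 308, 855, 2131 and 2791 CPM in the pre-cDC, lo-lo, lo-hi and the pDC libraries, and *Ccr9*, the sorted chemokine receptor, 33.0, 66, 231 and 461 CPM. The grouping used transcription factors of the same libraries, so this order is no independent check. *Xist*, made from the inactive X chromosome, had 601 to 1959 counts in the 8 libraries of replicates 1 and 2 and 87 to 119 in the 4 of replicate 3, while the Y-linked *Ddx3y* had 1 to 10 counts against 58 to 145. Replicate 3 thus stood apart in all 4 populations, and the replicate number was taken to mark the mouse. These transcripts do not tell replicate 1 from replicate 2. Sex and replicate number cannot be told apart for replicate 3.

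Myeloperoxidase, encoded by *Mpo*, makes hypochlorous acid from hydrogen peroxide and chloride. Its level was 248, 159 and 98.3 CPM in pre-cDC replicates 1, 2 and 3, 281, 91.5 and 110 CPM in lo-lo, 304, 177 and 178 CPM in lo-hi and 111, 91.9 and 75.5 CPM in pDC replicates 1, 2 and 3. The lo-hi libraries all lay above the pDC libraries, while the pre-cDC and lo-lo libraries spread across both. The means were 169 ± 75.4, 161 ± 105, 220 ± 73.1 and 92.7 ± 17.6 CPM (SD, n = 3) in the pre-cDC, lo-lo, lo-hi and the pDC libraries.

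*Elane*, *Ctsg* and *Prtn3* encode neutrophil elastase, cathepsin G and proteinase 3, the serine proteases of the primary granule. *Elane* stood at 102, 57.5 and 44.6 CPM in pre-cDC, 129, 21.5 and 41.8 CPM in lo-lo, 133, 91.1 and 75.0 CPM in lo-hi and 45.0, 27.8 and 33.4 CPM in pDC replicates 1, 2 and 3. *Ctsg* stood at 98.4, 61.5 and 34.8 CPM in pre-cDC, 113, 26.6 and 31.0 CPM in lo-lo, 91.4, 57.4 and 44.1 CPM in lo-hi and 36.1, 29.1 and 21.7 CPM in pDC replicates. For both, lo-lo was the lowest population in replicate 2 and the highest or next to it in replicate 1. *Prtn3* stood at 60.3, 41.7 and 53.4 CPM in pre-cDC, 66.1, 22.2 and 27.5 CPM in lo-lo, 55.9, 49.7 and 33.6 CPM in lo-hi and 22.5, 20.2 and 13.9 CPM in pDC replicates. *Prtn3* differed from its neighbours in pre-cDC replicate 3, where it was second among the 3 pre-cDC libraries while the other 9 members were at their lowest. It was the only member for which all pre-cDC libraries lay above all pDC libraries, a pattern that 17.9% of the genes tested had.

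*Ms4a3* encodes a membrane protein with several membrane spans that marks granulocyte and monocyte progenitors. It was the lowest of the 10 and stood at 29.0, 21.3 and 10.5 CPM in pre-cDC, 40.2, 8.19 and 10.5 CPM in lo-lo, 38.2, 27.4 and 19.3 CPM in lo-hi and 9.71, 11.4 and 9.11 CPM in pDC replicates 1, 2 and 3. Its lowest count was 21, which is above the floor in every library.

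The late genes were present at far higher levels. *S100a8*, a calcium-binding subunit of calprotectin, stood at 5050, 4877 and 1921 CPM in pre-cDC, 7724, 2393 and 2499 CPM in lo-lo, 9015, 5846 and 4413 CPM in lo-hi and 2848, 2399 and 1500 CPM in pDC replicates. Its partner *S100a9* stood at 2012, 2095 and 663 CPM in pre-cDC, 3345, 1103 and 981 CPM in lo-lo, 3545, 2519 and 1785 CPM in lo-hi and 1101, 950.5 and 572 CPM in pDC replicates. Even in pDC replicate 3, the lowest library, *S100a8* thus held 1500 CPM, or 3457 counts. For scale, the gate gene *Siglech* had a mean of 2791 CPM in pDCs.

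*Ngp*, *Camp* and *Ltf* encode neutrophilic granule protein, cathelicidin and lactoferrin, all of the secondary granule. *Ngp* stood at 2467, 1973 and 1041 CPM in pre-cDC, 3765, 995 and 1214 CPM in lo-lo, 4848, 2096 and 1952 CPM in lo-hi and 1587, 1075 and 609 CPM in pDC replicates 1, 2 and 3. *Ltf*, which binds iron, stood at 261, 227 and 82.1 CPM in pre-cDC, 434, 143 and 114 CPM in lo-lo, 482, 236 and 212 CPM in lo-hi and 158, 110 and 72.5 CPM in pDC replicates. *Camp* ranged from 360 CPM in pDC replicate 3 to 2203 CPM in lo-hi replicate 1. As for the primary genes, the 3 lo-hi libraries lay above the 3 pDC libraries for each of the 5, and lo-lo replicate 1 was the highest library after lo-hi replicate 1.

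**Figure D1:**
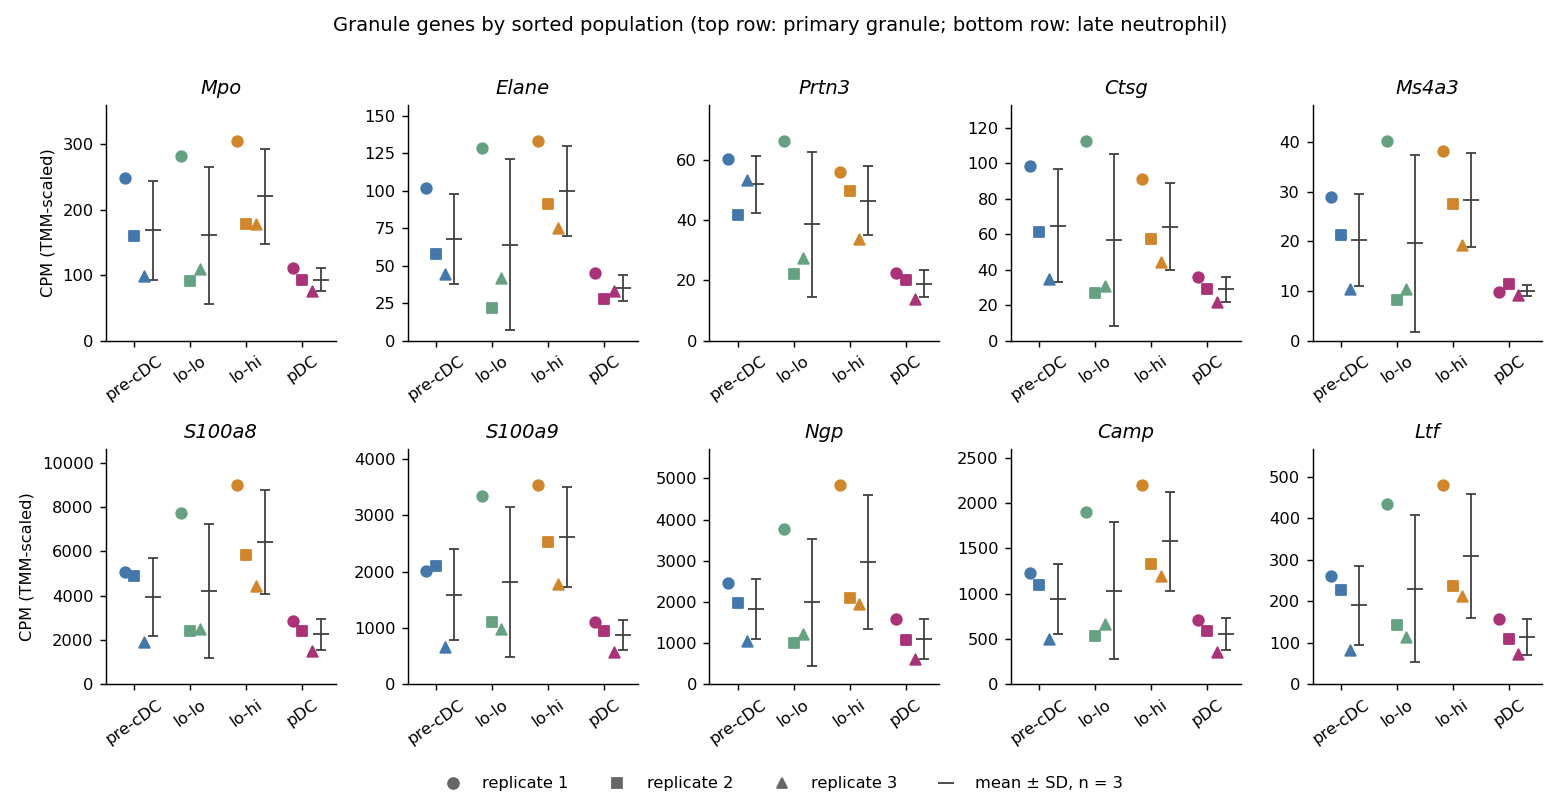
CPM (TMM-scaled, linear axes from 0) of the 10 genes in the 12 libraries, by population on the horizontal axis; the point shape gives the replicate number, and the dash with bars the mean ± SD of n = 3. The 3 lo-hi libraries lie above the 3 pDC libraries in all 10 panels, and replicate 1 is the highest of its population in most panels.

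Within the 12 libraries the members changed by a similar factor. The highest library was 4.03 times (*Mpo*) to 7.96 times (*Ngp*) the lowest. The lowest was pDC replicate 3 for 8 members and lo-lo replicate 2 for *Elane* and *Ms4a3*. Lo-lo replicate 1 was 2.66 times (*Prtn3*) to 4.30 times (*Ms4a3*) the mean of lo-lo replicates 2 and 3. Replicate 1 held the highest level of its population for 9 members in pre-cDCs, 10 in lo-lo, 10 in lo-hi and 9 in pDCs.

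Between the 4 populations, 0 of the 10 members had an adjusted p under 0.01 in edgeR's quasi-likelihood test (Benjamini-Hochberg over 15293 genes), in which 19.9% of all genes were called. *Prtn3* had the smallest adjusted p, 0.0653, and was the 1 member with an unadjusted p under 0.05, against 37% of all genes. Without pre-cDC replicate 3 or any 1 of the pDC libraries 0 members had such a p. Without lo-lo replicate 1 8 had, as had 5286 of 15302 genes. With the replicate number as a block, which takes the level shared by the libraries of 1 mouse out of the spread, 5 of the 10 were called, against 24.4% of all genes. They were *Prtn3* (adjusted p = 0.000108), *Mpo* (0.00013), *Ltf* (0.00208), *Ctsg* (0.00773) and *Ngp* (0.00828) by the same edgeR test. DESeq2's likelihood ratio test without the block called 1 member, *Prtn3* (adjusted p = 0.000413), and 18.9% of all genes. Without lo-lo replicate 1, edgeR's test without a block called *Prtn3* (adjusted p = 1.63e-05) and *Ms4a3* (0.001), and 18% of all genes.

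The difference of pDCs from lo-hi precursors was the largest for 9 of the 10 members and had the same sign for all. The log2 fold change ran from -1.15 ± 0.64 (SE) for *Ctsg* to -1.58 ± 0.62 for *S100a9*, with a median of -1.47 over the members and 0.03 over all genes. *Mpo* had a log2 fold change of -1.25 ± 0.50 and *S100a8* one of -1.51 ± 0.59. None of the 10 was called by edgeR's test without the block, where 0.961% of all genes were, and 7 of the 10 had an unadjusted p under 0.05, against 11.3%. This count of 7 was 1 without lo-hi replicate 1, pDC replicate 2 or pDC replicate 3, 4 without lo-hi replicate 2, pDC replicate 1 or pre-cDC replicate 2, and 7 or 10 without each of the other libraries. With the block the fold changes hardly moved (median -1.47), and 3 members were called, against 2.26% of all genes. These were *Mpo* (adjusted p = 0.00017), *Prtn3* (0.00139) and *Ltf* (0.00273), all lower in pDCs, as were 1.71% of all genes. A fit of the 6 libraries alone called 4 members, *Elane* (adjusted p = 0.000115), *Ms4a3* (0.000161), *Prtn3* (0.000285) and *Mpo* (0.000822), and 1.42% of all genes. DESeq2's Wald test without the block called *Prtn3* (adjusted p = 0.00465) and 1.31% of all genes, and edgeR's test without lo-lo replicate 1 called *Prtn3* (0.00104) and *Ms4a3* (0.00834) and 0.967%. The 3 lo-hi libraries exceeded the 3 pDC libraries for 10 of 10 members, against 9.1% of the genes tested. Within each replicate, pDCs were lower than lo-hi precursors for all 10 members in 3 of 3 replicates, against 18.5% of the 10808 genes that averaged 10 counts or more. The 10 members varied together over the libraries, so these counts are not 10 separate results.

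Against pre-cDCs, all 10 members were also lower in pDCs, in 3 of 3 replicates each, a pattern of 28.1% of genes. The log2 fold change ran from -0.73 ± 0.66 for *Ltf* to -1.43 ± 0.39 for *Prtn3*, with a median of -0.86 over the members (-0.56 without pre-cDC replicate 1) and 0.05 over all genes. *Prtn3* had an adjusted p of 0.0155 by edgeR's test, and 0 of 10 members were called, against 21.7% of all genes. With the block, 3 of 10 were called, all primary granule genes, against 25.4%, namely *Prtn3* (adjusted p = 1.75e-05), *Mpo* (0.00169) and *Ctsg* (0.00251). Whether the primary and late genes differ in this contrast was not tested. *Prtn3* also passed in DESeq2's test (adjusted p = 4.4e-05, with 19.5% of all genes) and, by edgeR without the block, when lo-lo replicate 1 (8.52e-06), 2 (0.00229) or 3 (0.00915) was left out, with 20.6%, 21.7% and 21.3% of all genes.

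In the other comparisons fewer members, or none, passed. Between pDCs and lo-lo precursors the members had a median log2 fold change of -0.92, with 0 of 10 called (13.8% of all genes), and with the block 2, *Prtn3* (adjusted p = 0.00279) and *Mpo* (0.00957), against 17%. The size of this difference rests on lo-lo replicate 1, without which the median was -0.15 and 2 of the 10 members were higher in pDCs. Between lo-lo precursors and pre-cDCs the fold changes ran from -0.44 ± 0.37 for *Prtn3* to 0.28 ± 0.65 for *Ltf*, and 0 of 10 were called with or without the block, where 4.86% and 3.16% of all genes were. Their median was 0.02, and without lo-lo replicate 1 it was -0.73, with 0 of 10 members higher in lo-lo. In no member did this difference have the same sign in all 3 replicates, whereas 27.8% of genes were higher and 22.4% lower in lo-lo in all 3. Lo-hi precursors stood above lo-lo precursors in 3 of 3 replicates for 7 members, against 26.2% of genes, and above pre-cDCs for 8, against 30.4%, and again 0 of 10 were called in either comparison, with 5.17% and 13.1% of all genes called without the block and 6.95% and 16.2% with it. Without lo-lo replicate 1, *Ms4a3* was called between lo-hi and lo-lo precursors (log2 fold change 1.60, adjusted p = 0.00647, edgeR), as were 3.99% of all genes. The median log2 fold change of lo-hi from lo-lo precursors over the members, 0.55, was 1.34 without lo-lo replicate 1 and 0.18 without lo-hi replicate 1. With the block, 6 of the 10 had an unadjusted p under 0.05 in this comparison, against 21.7% of all genes, and the smallest adjusted p was 0.0583 (*Mpo*, edgeR). For the late genes the order of the means was lo-hi, lo-lo, pre-cDC and pDC. The place of lo-lo above pre-cDCs rests on lo-lo replicate 1, without which the late sum of lo-lo was 5316 CPM against 8497 CPM in pre-cDCs.

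**Figure D2:**
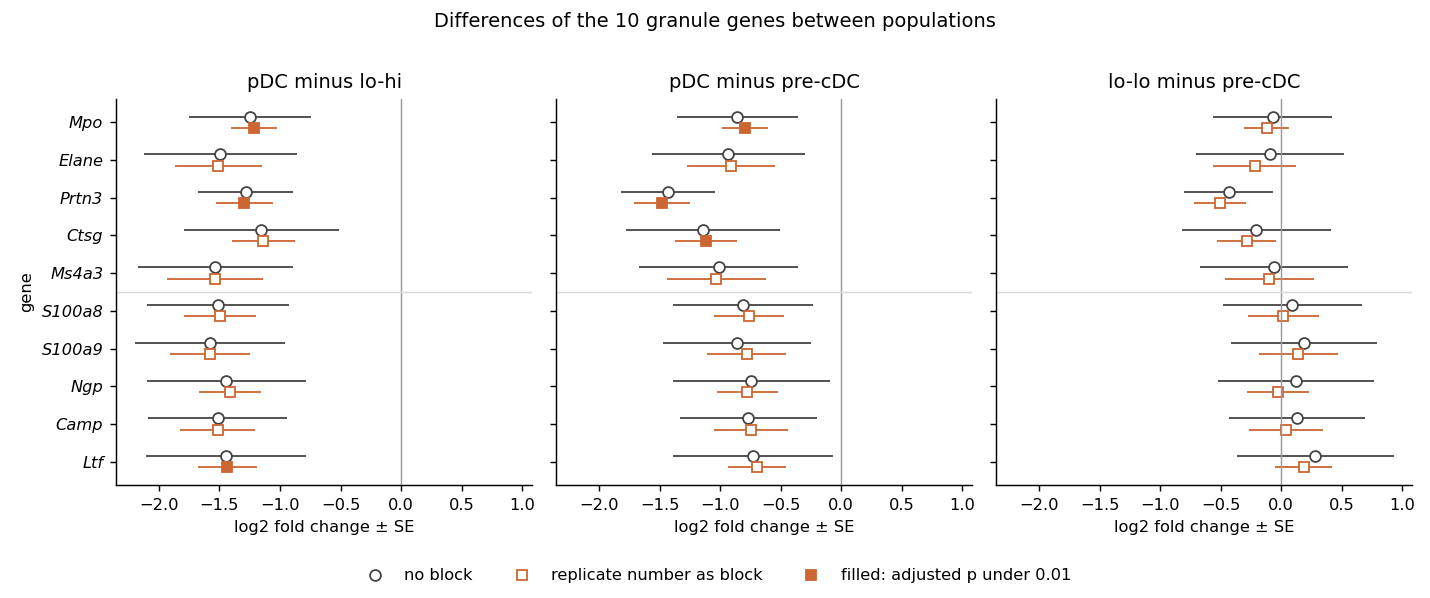
Log2 fold change ± SE (edgeR) of each gene, primary granule genes above the line and late neutrophil genes under it, in 3 comparisons between populations; filled symbols mark an adjusted p under 0.01. With the replicate number as block the SE shrinks, and all estimates in the comparisons with pDCs stay below 0. Between lo-lo precursors and pre-cDCs the median over the genes moves from 0.02 to -0.06. With the block, 3 genes pass in each comparison with pDCs and 0 between lo-lo precursors and pre-cDCs.

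The replicate number, with which the sex-linked transcripts also differed, carried a difference. In the blocked fit, the term for the replicate number passed for 3 of 10 members, *Mpo* (adjusted p = 0.000584), *Ltf* (0.00392) and *Ctsg* (0.00497), against 0.66% of all genes by edgeR's test, and all 10 had an unadjusted p under 0.05, against 13.9%. In replicate 1 lo-hi precursors were highest for 7 members and pDCs lowest for 10. In replicate 2 lo-hi precursors were highest for 9, and lo-lo precursors were lowest for 7 and pDCs for 3. In replicate 3 lo-hi precursors were again highest for 9 and pDCs lowest for 10.

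On the deposited labels, 0 of 10 members and 0 genes in all were called between the 4 groups, and 7 of 10 members had an unadjusted p under 0.05, against 1.09% of genes. The libraries labelled pre-cDC are the wells A1, A2 and A3, which the match gives to replicate 1 of 3 populations. Members were lower in the libraries labelled pDC than in those labelled pre-cDC, with a median log2 fold change of -1.39, and than in those labelled lo-hi, with a median of -0.22. In the 4 wells on which label and match name the same population, with 1 library each and no test, the *Mpo* level was 248 CPM in pre-cDC 1, 91.5 CPM in lo-lo 2, 177 CPM in lo-hi 2 and 75.5 CPM in pDC 3. *S100a8* had 5050, 2393, 5846 and 1500 CPM in the same wells. The pDC library was lowest for 8 of the 10 members and the lo-lo library for 2, and the pre-cDC library was highest for 7 and the lo-hi library for 3. The 4 wells come from replicates 1, 2, 2 and 3, so population and mouse cannot be told apart in them.

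Primary and late genes varied together over the libraries. Summed over the 5 primary genes, the mean level was 373 ± 151, 340 ± 252, 459 ± 145 and 186 ± 35.5 CPM (SD, n = 3) in the pre-cDC, lo-lo, lo-hi and the pDC libraries. Summed over the 5 late genes it was 8497 ± 3733, 9269 ± 6848, 13894 ± 5509 and 4879 ± 1659 CPM. The late sum per primary sum was 22.7 ± 6.62, 27.5 ± 2.80, 29.8 ± 2.47 and 25.8 ± 4.75, and the 4 populations overlapped. Over single libraries the ratio ran from 17.4 in pre-cDC replicate 3 to 32.3 in lo-hi replicate 1, a range of 1.85 times, while the late sum had a range of 6.45 times and the primary sum one of 4.09 times.

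**Figure D3:**
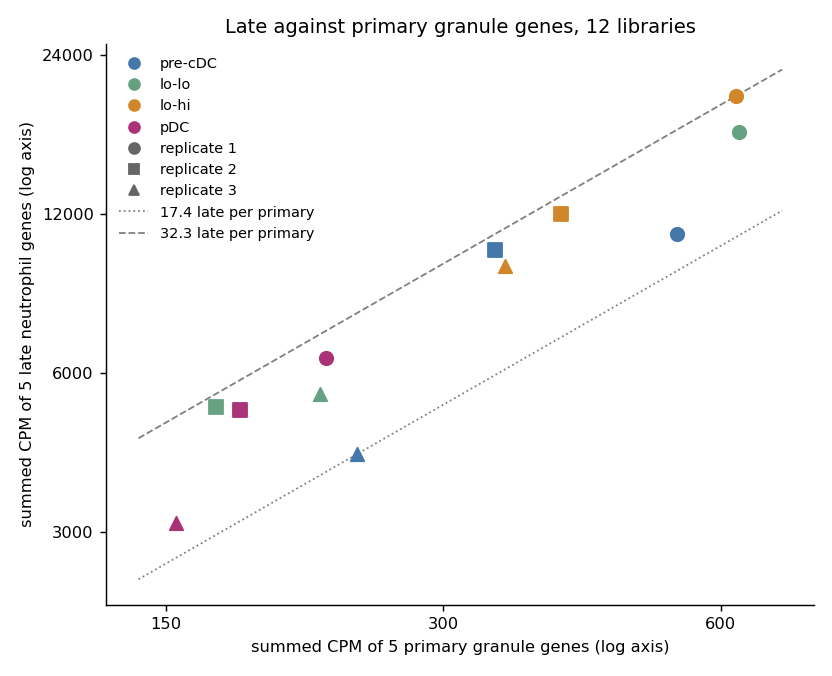
Summed CPM of the 5 late genes against that of the 5 primary genes in the 12 libraries, on log axes; colour gives the population and shape the replicate. The points lie between the lines of 17.4 and 32.3 late per primary CPM, and the 3 pDC libraries lie at the lower left, beside lo-lo replicates 2 and 3 and pre-cDC replicate 3.

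The late genes kept nearly 1 ratio to each other. *S100a9* per *S100a8* lay between 0.345 and 0.461 in all 12 libraries, a range of 1.33 times with a coefficient of variation of 7.47%, although each gene varied by about 6 times (6.19 and 6.01). *Camp* per *S100a8* had a range of 1.22 times, *Ltf* per *S100a8* 1.48 times and *Ngp* per *S100a8* 1.55 times. For the primary genes, set against *S100a8* of the other set, the ranges were wider. The lowest count was 21 for *Ms4a3* and 32 for *Prtn3*, against 3457 for *S100a8*, so counting error weighs more in such ratios. Its part in the ranges was not tested. *Mpo* per *S100a8* had a range of 1.69 times, *Ms4a3* 1.78 times, *Ctsg* 1.98 times and *Elane* 2.58 times. *Prtn3* stood apart, with a range of 4.48 times per *S100a8* and 2.96 times per *Mpo*. *Prtn3* per *Mpo* had means of 0.349 in pre-cDC, 0.243 in lo-lo, 0.217 in lo-hi and 0.202 in pDC libraries, and was highest in pre-cDC replicate 3, at 0.543.

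Several genes outside the 10 varied more widely against *S100a8*. *Siglech* per *S100a8* varied by 36.5 times and *Cd34*, a progenitor antigen, by 35.2 times. *Lyz2*, the lysozyme of neutrophils, monocytes and macrophages, varied by 5.88 times per *S100a8* and was highest relative to it in pre-cDC replicate 3, as *Prtn3* was. The α-globin gene *Hba-a1*, of red cells, varied by 6.10 times per *S100a8*, whereas *Hbb-bs* per *Hba-a1*, both red-cell genes, varied by 1.22 times. Whether the granule transcripts come from the sorted cells, from other cells in the gate or from RNA carried over was not tested.

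**Figure D4:**
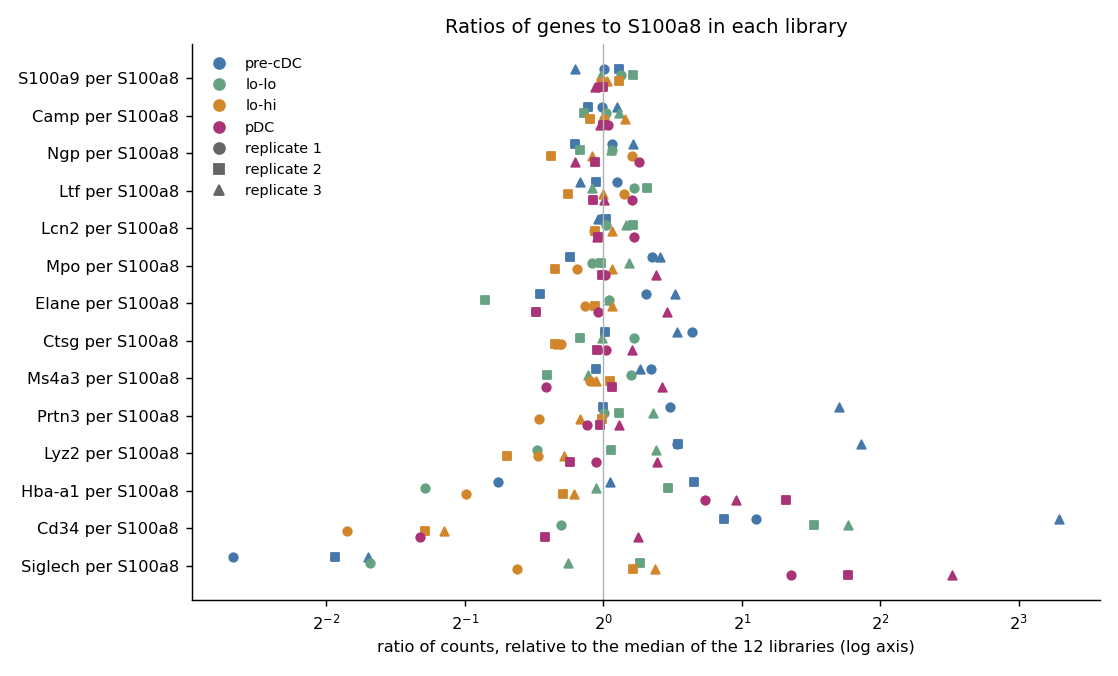
Ratio of each gene's level to that of *S100a8* in the 12 libraries, each divided by its median over the libraries (log axis); colour gives the population and shape the replicate. *S100a9*, *Camp* and *Lcn2* stay within a range of 1.22 to 1.33 times, and *Prtn3* spans 4.48 times with pre-cDC replicate 3 at the far right. *Cd34* and *Siglech* span over 35 times. For *Siglech* the pDC libraries lie above all others, while lo-lo and lo-hi overlap. For *Cd34* lo-lo overlaps pre-cDC and pDC, and lo-hi overlaps pDC.

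On log2 CPM over the 12 libraries, Pearson's r between members was 0.95 to 0.99 within the late set, 0.82 to 0.97 within the primary set and 0.71 to 0.97 between the sets. These are descriptions over libraries that share mice, populations and depth. Among 10798 other genes that averaged 10 counts or more, the 5 most like the mean of the late set were *Lcn2* (r = 0.99), the siderophore-binding lipocalin 2, *Wfdc21* (0.99), *Chil3* (0.99), a chitinase-like secreted protein, *Trem3* (0.98), a receptor, and *Fcnb* (0.97), a ficolin of granules. The 5 most like the primary set were *Nkg7* (0.96), *Pygl* (0.96), the liver-type glycogen phosphorylase, *Hp* (0.96), haptoglobin, *Trem3* (0.95) and *Cd63* (0.95), a tetraspanin of lysosomes and azurophil granules. *Lcn2* followed *S100a8* with a range of the ratio of 1.22 times, and stood at 142, 161, 226 and 85.5 CPM on average in the pre-cDC, lo-lo, lo-hi and the pDC libraries.

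Other genes of granules and secretion were looked at as a list of 21, of which 19 passed the filter. Of these, 5 were called between the populations by edgeR's test without the block and 14 with it, against 19.9% and 24.4% of all genes. The median log2 fold change of pDCs from lo-hi precursors was -1.36, near that of the members. In that contrast 0 of 19 were called without the block and 13 with it, all lower in pDCs, against 0.961% and 2.26% of all genes. *Chil3* had means of 138, 154, 209 and 84.8 CPM in the 4 populations and an adjusted p of 0.429 between them, and 1.03e-05 with the block. Of the 5 that were called without the block, 4 were highest in pre-cDCs and lowest in pDCs, and *Cybb* was the reverse. *Lyz2* fell from 1881 CPM in pre-cDCs to 593 CPM in pDCs, *Ifitm6* from 89.3 to 21.9 CPM, *Serpinb1a*, a protease inhibitor, from 56.7 to 17.4 CPM and *Ltb4r1*, the leukotriene B4 receptor, from 27.5 to 6.25 CPM, while *Cybb*, the large subunit of the phagocyte NADPH oxidase, rose from 250 to 867 CPM.

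Receptors of the neutrophil surface were low. Among 10 such genes, 0 were called between the populations without the block and 2 with it, against the same 19.9% and 24.4%, and 1 was lower in pDCs than in pre-cDCs without the block, against 21.7% called in either direction. *Csf3r*, the receptor of G-CSF, had means of 10.8, 9.24, 11.2 and 5.50 CPM in the pre-cDC, lo-lo, lo-hi and the pDC libraries, *Trem3* 14.9, 15.4, 21.3 and 7.56 CPM, *Mcemp1* 46.1, 21.5, 23.8 and 9.86 CPM and *Fpr2*, a formyl peptide receptor, 4.21, 4.73, 7.93 and 2.46 CPM. *Mcemp1* was the 1 called, with an adjusted p of 0.00378 by edgeR's test for pDCs against pre-cDCs.

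Of 6 transcription factors of granulocytes, *Cebpd* was called between the populations (adjusted p = 0.000384, edgeR), and 3 were called with the block, against 19.9% and 24.4% of all genes. *Cebpd* had means of 35.3, 24.4, 27.2 and 15.6 CPM in the order above, *Cebpa*, which starts the granulocyte program, 18.7, 12, 11.9 and 11.6 CPM, and *Cebpb* 10.4, 5.40, 6.66 and 3.29 CPM. *Cebpe*, the factor of secondary granule genes, had 5.32, 5.84, 8.47 and 2.68 CPM, the order of the late genes, with an adjusted p of 0.0701 without and 0.00263 with the block. *Cebpe* reached at most 48 counts in a library.

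Of 15 genes of early myeloid progenitors, 8 were called without the block and 14 with it, against 19.9% and 24.4% of all genes. Their median log2 fold change was -1.03 for pDCs from pre-cDCs and -0.77 for pDCs from lo-hi precursors, both below 0 as for the members. *Cd34* fell from 25.0 CPM in pre-cDCs over 14.0 and 4.46 to 3.05 CPM in pDCs, and *Kit*, the stem cell factor receptor, *Igfbp4* and *Ap3s1* were also lower in pDCs than in pre-cDCs, with log2 fold changes of -1.86, -2.28 and -1.68. *Clec12a*, *Srgn*, the granule proteoglycan serglycin, and *Sirpa* were higher in pDCs, by 1.07, 1.22 and 0.95 on the log2 scale. *Myb*, a factor of dividing progenitors, was highest in lo-lo precursors at 52.1 CPM and stood at 23.6 CPM in pDCs. *Plac8* was abundant in all, with means from 1612 to 2319 CPM, and *Calr*, calreticulin, did not pass (adjusted p = 0.742).

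Markers of other cells were summed in each library to set beside the granule genes. The 6 neutrophil markers (*Retnlg*, *Mmp8*, *Csf3r*, *Ly6g*, *Cxcr2* and *Fpr1*) summed to 59.5 to 241 CPM in pre-cDC, 70.8 to 318 CPM in lo-lo, 109 to 319 CPM in lo-hi and 47.7 to 98.3 CPM in pDC libraries. None of the 6 was called without the block and 1, *Mmp8*, was with it, against 19.9% and 24.4% of all genes. All 6 also stand in the lists of granule and surface genes above and are not a separate set. Their sum followed the late sum with r = 0.95 over the 12 libraries on the log2 scale. *Retnlg*, a secreted resistin-like protein, made up most of it, with means of 118, 121, 167 and 51.8 CPM. *Ly6g*, the antigen used for depletion, was near the floor, with means of 2.07, 1.96, 3.35 and 0.75 CPM, 19 counts at most and 3 or fewer counts in 4 libraries.

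Markers of several other lineages moved with the granule genes as well. The 4 eosinophil markers summed to 5.64 to 48.4 CPM and had r = 0.88 with the late sum. The 4 megakaryocyte markers summed to 9.11 to 120 CPM with r = 0.83, and the 6 T and NK cell markers to 1.01 to 10.8 CPM with r = 0.82. Of the 6 T and NK cell markers, 4 passed the filter, and their lowest sum lay near the floor. The 7 erythroid markers, at 4707 to 18452 CPM, had r = 0.37, and the 8 B lineage markers r = 0.03. Among these, 0 of the erythroid, eosinophil and T and NK cell markers were called with or without the block, 2 B lineage markers in both fits, and 1 megakaryocyte marker with the block alone. The shares over all genes were 19.9% without and 24.4% with the block, here and for the marker lists that follow. Of the 5 basophil and mast cell markers, 4 were tested and 4 called with the block alone, with a sum of 84 ± 37.6 CPM in lo-lo and 547 ± 387 CPM in pre-cDC libraries. That sum had r = 0.47 with the late sum. Of the 8 monocyte and macrophage markers, *Ms4a6c* and *F13a1* were called in both fits, both falling from pre-cDCs to pDCs, and the sum of the 8 had r = -0.03 with the late sum. The 6 pDC markers and the 5 pre-cDC markers were all called, and their sums had r = 0.00 and r = -0.02 with the late sum. Thus lo-lo replicate 1 and lo-hi replicate 1, the highest for the granule genes, were also the highest for neutrophil markers, at 318 and 319 CPM. The part of such cells in the levels of the 10 genes was not tested.

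**Figure D5:**
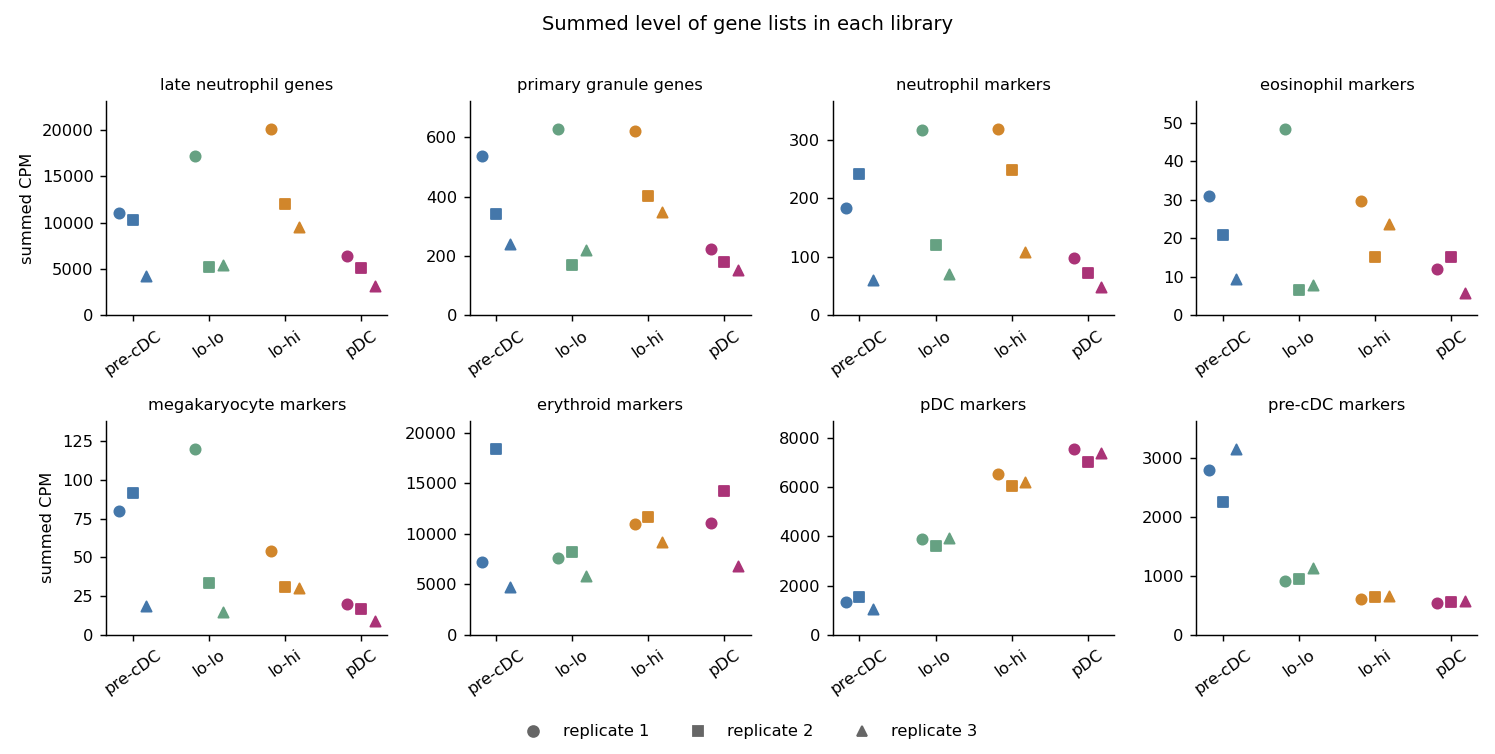
Summed CPM of the member sets and of 6 marker lists in each library, by population on the horizontal axis, linear axes from 0; shape gives the replicate. Neutrophil, eosinophil and megakaryocyte markers share the high lo-lo replicate 1 of the granule genes, whereas erythroid markers peak in pre-cDC replicate 2 and the pDC and pre-cDC markers separate the populations.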

How the data were processed

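RNA of 4 populations from bone marrow of C57BL/6 mice was measured in 12 libraries made by SCRB-seq, which tags transcripts near the poly(A) tail. Per the study's methods, zUMIs handled barcodes, STAR aligned to mm10, and Ensembl gene models of GRCm38 were used. The counts deposited by the authors are whole numbers that were not normalized, and whether they are reads or molecular identifiers is not stated. No filter is applied in the table, and 21410 of the 21754 identifiers had a symbol in the reference.

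Genes averaging 1 count or more were fitted with edgeR 4.0.16 (R 4.3.3) and its quasi-likelihood test, with TMM scaling, all 12 libraries in 1 fit, no covariate and Benjamini-Hochberg adjustment at 0.01. The authors' methods use the likelihood ratio test of DESeq2 (here 1.42.0), which was an alternative, as were DESeq2's size factors, other filters, a cutoff of 0.05, the deposited labels, the replicate number as a block, the 6 libraries compared and leaving out each library. The replicate number was taken as the mouse, since the study used 3 individual mice and the sex-linked transcripts set number 3 apart. Deviations from the group means had a mean correlation of 0.19 over 18 pairs with the same number (from -0.26 to 0.48) and of -0.10 over 36 others, so not every pair deviated together. Each population was centred on its own 3 libraries, which ties the second mean to the first, so it is not a separate baseline.

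The members and gene lists were chosen with earlier results of these data known. All 10 members are named, from each list the 4 genes with the highest mean CPM and those called between the populations, and the 5 genes most like each set. Genes of some marker lists, *Hbb-bs*, *Retnlg*, *Ly6g* and the ratios to *S100a8* were chosen after values were seen. Populations follow the matched wells and not the deposited labels.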

Additional observations from a re-analysis of the deposited data

How the results depend on the processing

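For pDCs against lo-hi libraries and against pre-cDC libraries, all 10 members were lower in pDCs under every alternative run, while the number past the cutoff changed. For pDCs against lo-lo libraries, 2 members were higher in pDCs without lo-lo 1, with or without lo-hi 1, and 3 on the deposited labels, with medians of -0.15, -0.15 and -0.23 on the log2 scale against -0.92. Of the members, between the 4 populations 1 was called by DESeq2's test, 1 with no filter and 5 with the replicate block. It was 2 without lo-lo 1 and lo-hi 1 together (a choice made after seeing the data), and 0 to 2 when each library was left out. Of all genes, 2891 of 15293 were called by DESeq2, 3678 of 21754 with no filter and 3730 of 15293 with the block. Without lo-lo 1 and lo-hi 1 it was 2483 of 15217 genes, and without 1 library 2411 to 3335. For pDC against lo-hi libraries, 1 member was called by DESeq2 and 1 with no filter. It was 3 with the replicate block, 4 from the 6 libraries alone and 0 to 2 without 1 library. Of all genes, 200 of 15293, 344 of 21754, 346 of 15293 and 217 of 15298 were called in the first 4 of these settings. For pDC against pre-cDC libraries, 1 member was called by DESeq2, with no filter, with a mean count of at least 10, at a cutoff of 0.05 and from the 6 libraries. It was 3 with the replicate block, 2 without lo-lo 1 and lo-hi 1, and 0 to 1 without 1 library. Of all genes, 2982 of 15293 were called by DESeq2, 3679 of 21754 with no filter and 3098 of 10808 with a mean count of at least 10. At 0.05 it was 4825 of 15293, from the 6 libraries 2688 of 15412 and with the block 3882 of 15293. Without lo-lo 1 and lo-hi 1 it was 2956 of 15217 genes, and without 1 library 2503 to 3556. For pDC against lo-lo libraries, 1 member was called with no filter and 2 with the replicate block, against 2404 of 21754 and 2594 of 15293 genes. For lo-hi against lo-lo libraries 0 to 1 members were called without 1 library. Why the filter moves the calls of *Prtn3* was not tested. Over all genes, the deposited labels gave 0 calls in every comparison. For lo-lo against pre-cDC libraries the main 483 calls became 733 with no filter, 907 at 0.05, 743 with the replicate block, 270 without lo-lo 1 and lo-hi 1, and 280 to 662 without 1 library. For lo-hi against lo-lo, 790 became 1321 at 0.05, 1191 from 6 libraries, 220 without those 2 and 381 to 945 without 1. For pDC against lo-hi, 147 became 344 with no filter, 327 at 0.05, 346 with the replicate block, 88 without those 2 and 65 to 213 without 1. At 0.05, lo-hi against pre-cDC rose from 2001 to 3063 and pDC against lo-lo from 2108 to 3332, and without those 2 the former was 1240. On the deposited labels the primary sum was 596, 275 and 241 CPM for pre-cDC, lo-hi and pDC, the late sum 16094 and 7118 CPM for pre-cDC and lo-hi, and the late per primary sum 25.2 for lo-hi. The floor of 3 counts limits *Ly6g*, *Cxcr2* and *Fpr1* more than any member.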
